A study of Mus musculus with 6 samples.

Results

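Slc1a2, Slc1a3, Slc4a4, Aqp4, Gja1, Gjb6, Trpm3, Prex2 and Luzp2 are 9 genes whose transcripts are abundant in astrocytes. They were taken by symbol from the 32285 genes of the 6 count matrices, and all 9 were found once in each. They had been selected on measured values of these same libraries: a low level of such RNA in microglia that differed between genotypes. Their values in microglia-like nuclei are therefore given as a description, with no test, and the other cell types of the same libraries are not independent support for that difference.

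Nuclei came from the frozen cortex of mice aged 7.5 months, and those without NeuN staining were sorted, which depletes neurons (50000 sorted and 10000 targeted per library, 5000 of them from each sex). There were 3 groups of 2 libraries, numbered replicates 2 and 3: 5xFAD, 5xFAD;M28L and 5xFAD;P522R, written below as 5xFAD, 5xFAD-M28L and 5xFAD-P522R. 5xFAD mice carry mutant human transgenes driven in neurons by a Thy1 promoter and form amyloid plaques. M28L and P522R are protein variants of the phospholipase PLCG2, which the brain expresses mainly in microglia. All 3 groups carry the 5xFAD transgenes, so no comparison below is with mice free of amyloid. How many copies of each variant the mice carry, and whether replicates 2 and 3 come from separate animals, is not given in the sources used here. The p-values below therefore measure the spread between these libraries, which may be technical.

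Astrocytes clear glutamate from synapses through the sodium-driven transporters encoded by Slc1a2 and Slc1a3. They move bicarbonate with sodium through the cotransporter encoded by Slc4a4, and water through aquaporin-4 (Aqp4), which is concentrated on the endfeet that wrap blood vessels. They are joined to each other by gap junctions made of the connexins encoded by Gja1 and Gjb6. Trpm3 encodes a cation channel, and Prex2 an exchange factor that activates the small GTPase Rac. In droplet sequencing of nuclei, free RNA of abundant transcripts can be captured together with any nucleus, and 2 nuclei can share a droplet.

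The libraries held 9269 to 13783 barcodes and 53326947 to 72288942 UMIs (unique molecular identifiers, the count of captured RNA molecules). After filters and the removal of 2962 called doublets, 59689 nuclei were left, and 58149 of them lay in clusters that could be named from markers, none of which is among the 9 genes. The ending "-like" marks a name given from markers only. Pairs of libraries shared 20 to 71 barcodes. 1 library, 5xFAD-P522R replicate 3, carries an older Cell Ranger version (5.0.1) in its header than the other 5 (6.1.2).

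The astrocyte-like nuclei carried 14 of 14 astrocyte markers in both clusters that make up the class, and their number differed strongly between libraries. They made up 10.4% of the nuclei in 5xFAD replicate 2 (1369 of 13122, exact 95% binomial interval 9.92% to 11.0%) and 8.57% in replicate 3 (775 of 9045, 7.999% to 9.16%). In 5xFAD-M28L they made up 7.23% (695 of 9608, 6.72% to 7.77%) and 6.13% (543 of 8856, 5.64% to 6.65%). In 5xFAD-P522R they made up 3.56% (339 of 9534, 3.19% to 3.95%) and 1.68% (160 of 9524, 1.43% to 1.96%). These intervals cover counting error only. Within both replicate numbers the share was highest in 5xFAD and lowest in 5xFAD-P522R, and the ratio of the mean shares of 5xFAD-P522R and 5xFAD was -1.86 on the log2 scale. Every comparison of 5xFAD-P522R with another group below is therefore also one of libraries with few astrocyte-like nuclei with libraries with more, and in 2 libraries per group genotype and astrocyte share cannot be told apart.

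Levels are given as CPM, the UMIs of a gene per 1000000 UMIs of the cell type in that library. Slc1a2, the transporter that carries most glutamate uptake in the forebrain, was the most abundant of the 9 in astrocyte-like nuclei. Its level was 8198 and 8501 CPM in 5xFAD, 9316 and 9485 CPM in 5xFAD-M28L, and 8394 and 8660 CPM in 5xFAD-P522R. Per kilobase of exon, its mean level in 5xFAD was 636 CPM, against 329 for Slc1a3, 191 for Slc4a4, 153 for Prex2, 122 for Trpm3, 34.9 for Aqp4, 25.3 for Gja1 and 59.2 for Gjb6. Luzp2 had the highest value on that scale, 751 CPM per kilobase, with 5.62 kb of exon over all its transcripts together. A UMI counts a molecule once whatever its length, so the order on this scale depends on the divisor and does not rank abundance. Counting in nuclei captures unspliced RNA, so long introns can raise a level. Per kilobase of gene span, Slc1a2 stood at 63.2 CPM, Slc1a3 at 36.6 and the other 7 between 3.47 (Trpm3) and 15.4 (Gjb6).

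Of the 9 genes, 7 had their highest level in astrocyte-like nuclei, in each case with no overlap of the 6 libraries with those of the next cell type. Slc1a2 was the most restricted of the transporters. Its median was 8581 CPM in astrocyte-like nuclei, followed by 470 in endothelial-like, 435 in excitatory neuron-like and 346 in OPC-like nuclei (oligodendrocyte precursors), which overlapped each other. Inhibitory neuron-like (131), fibroblast-like (91.3), microglia-like (90.4), border macrophage-like (81.1), oligodendrocyte-like (78.5) and committed OPC-like nuclei (49.3) had the lowest medians and overlapped their neighbours in this order. Slc1a3 was followed by fibroblast-like nuclei at 1419 CPM and microglia-like nuclei at 322, and Slc4a4 by fibroblast-like nuclei at 506 and inhibitory neuron-like nuclei at 441. Prex2 reached 1093 CPM in endothelial-like and 904 in pericyte-like nuclei, and Luzp2 2306 in OPC-like and 1988 in committed OPC-like nuclei. Aqp4 dropped from 210 CPM in astrocyte-like to 15.3 in OPC-like nuclei, the next type. Gja1 dropped from 255 CPM to 161 in fibroblast-like nuclei.

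The other two were highest outside astrocytes. Trpm3 stood at a median of 14538 CPM in fibroblast-like nuclei (12604 to 16425) against 2971 in astrocyte-like nuclei (2667 to 3162). Gjb6 stood at 274 CPM in fibroblast-like nuclei (170 to 324) and 156 in astrocyte-like nuclei (135 to 205), ranges that overlapped. As a share of the astrocyte-like level of the same library, the median in fibroblast-like nuclei was also 65.1% for Gja1 and 49.7% for Slc1a3, and that of Prex2 in endothelial-like nuclei 44.4%.

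**Figure D1:**
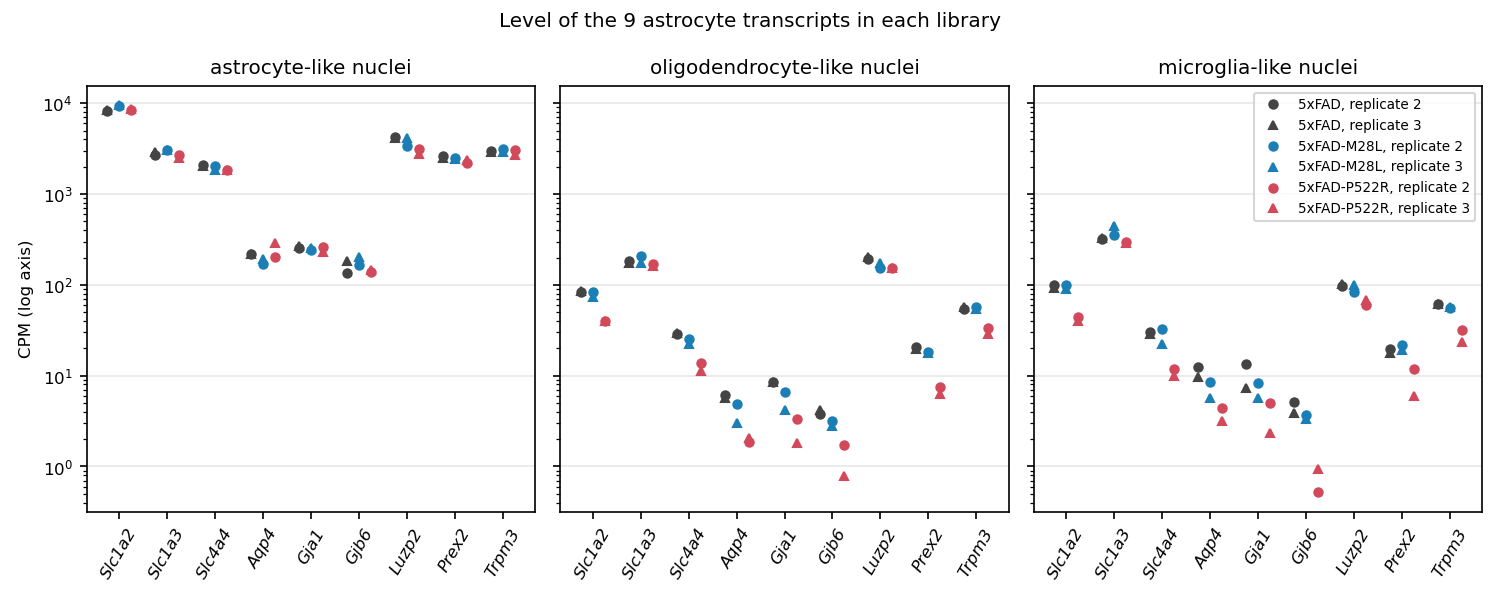
CPM (log axis) of each of the 9 genes in astrocyte-like, oligodendrocyte-like and microglia-like nuclei, 1 point per library, coloured by group and shaped by replicate number. In oligodendrocyte-like and microglia-like nuclei the 2 libraries of 5xFAD-P522R lie lowest for all 9 genes, and in astrocyte-like nuclei the groups lie close together. For Luzp2 in oligodendrocyte-like nuclei the gap is small (153.6 CPM in 5xFAD-P522R against 154.7 CPM in 5xFAD-M28L). The share of all genes with this order is not given here.

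The 2 glutamate transporter genes are printed with the 250 bases before their RefSeq start, because they moved differently outside astrocytes (below). The window of Slc1a2 is chr2:102706188-102706437 on the plus strand and that of Slc1a3 chr15:8710808-8711057 on the minus strand (GRCm38.p6). The GENCODE model of Slc1a2 (2:102658659-102790784) starts upstream of its window, so this is an internal start, and the model of Slc1a3 spans 15:8634124-8710764. Capitals mark CCAAT (either strand), a core promoter motif. Sequences are 5′ to 3′ on the gene's strand:
Slc1a2: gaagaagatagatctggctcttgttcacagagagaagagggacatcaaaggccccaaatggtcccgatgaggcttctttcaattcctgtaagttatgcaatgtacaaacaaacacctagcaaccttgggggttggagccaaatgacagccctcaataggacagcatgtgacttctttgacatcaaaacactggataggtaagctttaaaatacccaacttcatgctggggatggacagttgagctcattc
Slc1a3: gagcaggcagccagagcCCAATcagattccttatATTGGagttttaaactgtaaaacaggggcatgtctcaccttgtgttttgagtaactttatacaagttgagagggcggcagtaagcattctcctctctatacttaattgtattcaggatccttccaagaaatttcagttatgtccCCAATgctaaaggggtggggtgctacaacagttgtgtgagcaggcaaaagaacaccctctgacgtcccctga
CCAAT was found 3 times before Slc1a3 and 0 times before Slc1a2. It was in 4 of the 7 genes with an entry in the promoter table (all but Prex2 and Aqp4) and in 33.9% of the 32851 windows of that length. ACAAAG (the core bound by SOX factors) and TTGGCA (a half-site of nuclear factor I), which were searched on both strands too, were in 0 of the 7 genes and in 16.5% and 12.3% of windows.

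In astrocyte-like nuclei themselves, the 9 genes differed little between genotypes. None of the 9 passed the edgeR quasi-likelihood test (adjusted p under 0.05 over all 13763 genes tested) in any of the 3 contrasts, where 0% of genes passed for 5xFAD-M28L against 5xFAD, 0.0218% for 5xFAD-P522R against 5xFAD and 0% for 5xFAD-P522R against 5xFAD-M28L. The number with an unadjusted p under 0.05 was 1, 4 and 5 of 9 in that order, and DESeq2 called 0, 1 and 4. Over all genes, 711, 1482 and 1120 had an unadjusted p under 0.05, edgeR called 0, 3 and 0, and DESeq2 called 3, 77 and 71. With 160 nuclei in the smallest library, counts were simulated at a log2 change of 1 for 5xFAD-P522R against 5xFAD-M28L. Of 200 changed genes, drawn from all those tested, 47.5% were recovered, so changes of that size can be missed. The rate for the 9 genes themselves, which are abundant here, was not simulated.

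Luzp2 had the largest difference. It stood at 4253 and 4181 CPM in 5xFAD, 3386 and 4118 CPM in 5xFAD-M28L, and 3166 and 2753 CPM in 5xFAD-P522R. Both 5xFAD-P522R libraries lay below the other 4, with a log2 fold change of -0.60 ± 0.12 (SE) against 5xFAD and an adjusted p of 0.247 (edgeR). Slc1a2 was -0.06 ± 0.07 (SE; adjusted p 0.785) and Slc1a3 -0.22 ± 0.09 (SE; adjusted p 0.440) in the same contrast. Slc4a4 was at 2107 and 2019 CPM in 5xFAD and at 1840 and 1846 CPM in 5xFAD-P522R, which is -0.26 ± 0.08 (SE) on the log2 scale, with an adjusted p of 0.363. The Aqp4 level was 218 and 217 CPM in 5xFAD, 170 and 191 CPM in 5xFAD-M28L, and 204 and 288 CPM in 5xFAD-P522R. Its fold change against 5xFAD was 0.06 ± 0.15 (SE) on the log2 scale and became -0.18 without 5xFAD-P522R replicate 3, which held the highest value. For Gja1, levels stayed between 229 and 265 CPM in the 6 libraries. Over the 9 genes the median log2 fold change was -0.22 for 5xFAD-P522R against 5xFAD, where the median of all genes was 0.00.

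In oligodendrocyte-like nuclei, which held 4035 to 6577 nuclei per library and all 12 oligodendrocyte markers in each of their clusters, the same genes were at a low level, and most were lower in 5xFAD-P522R. Slc1a2 stood at 83.2 and 85.4 CPM in 5xFAD, 83.1 and 73.8 CPM in 5xFAD-M28L, and 39.9 and 40.2 CPM in 5xFAD-P522R. Both 5xFAD-P522R libraries held about the same level, and it lay below the other 4 libraries, which differed little from each other. Against 5xFAD its log2 fold change was -1.08 ± 0.07 (SE; edgeR, adjusted p 0.0189), and against 5xFAD-M28L -0.998 ± 0.07 (SE; adjusted p 0.0320). Prex2 was at 20.7 and 19.6 CPM in 5xFAD, 18.2 and 17.9 CPM in 5xFAD-M28L, and 7.60 and 6.26 CPM in 5xFAD-P522R, a log2 fold change of -1.54 ± 0.12 against 5xFAD (SE; adjusted p 0.0250) and -1.41 ± 0.12 against 5xFAD-M28L (SE; adjusted p 0.0460). Slc4a4 was at 28.5 and 29.4, 25.2 and 22.3, and 13.9 and 11.1 CPM in the same order, with -1.21 ± 0.12 against 5xFAD (SE; adjusted p 0.0450).

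In this cell type 3 of the 9 genes fell in 5xFAD-P522R against 5xFAD, where 0.0379% of all 15830 genes tested were called, all of them lower. Against 5xFAD-M28L 2 fell, where 0.0126% were called, and in 5xFAD-M28L against 5xFAD none passed, where 0% were called. Gpc5 and Rorb were also called in the first of these contrasts and are named because few genes were. Their medians were 164 and 24.1 CPM here against 11356 and 1948 CPM in astrocyte-like nuclei, and both lost the call with any 1 of the 6 libraries left out (adjusted p 0.0614 to 0.580). In the first contrast the calls rest on every library: with any 1 of the 6 left out, 0 or 1 of the 9 were called, although the fold change of Slc1a2 against 5xFAD stayed between -1.11 and -1.04. In the second contrast 0 were called with any 1 library left out, except without 5xFAD replicate 2 (2 called). Calls were also lost (0 in both contrasts) when only the 4 libraries compared were fitted and when nuclei were gated one by one on their own markers in place of clusters. With nuclei whose barcode occurred in 2 libraries left out, 3 of the 9 were called against 5xFAD and 2 against 5xFAD-M28L.

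Among the remaining 6 genes, Trpm3 was at 54.3 and 57.3 CPM in 5xFAD and 33.6 and 28.7 CPM in 5xFAD-P522R (log2 fold change -0.84 ± 0.09 SE, adjusted p 0.0567). The 3 genes with the fewest UMIs in this type had the largest fold changes and wide errors. Aqp4 was at 6.15 and 5.70 CPM in 5xFAD, 4.92 and 2.99 CPM in 5xFAD-M28L, and 1.85 and 2.04 CPM in 5xFAD-P522R, or 49 to 137 UMIs per library (-1.61 ± 0.26 SE, adjusted p 0.166). For Gja1 the values were 8.62 and 8.50, 6.58 and 4.19, and 3.30 and 1.79 CPM (-1.74 ± 0.30 SE, adjusted p 0.212), and for Gjb6 3.82 and 4.20, 3.18 and 2.81, and 1.74 and 0.792 CPM (-1.65 ± 0.34 SE, adjusted p 0.240). In each of these the 5xFAD-P522R libraries lay below the other 4.

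Slc1a3 and Luzp2 behaved otherwise. Slc1a3 was at 185 and 175 CPM in 5xFAD, 207 and 175 CPM in 5xFAD-M28L, and 170 and 163 CPM in 5xFAD-P522R, a log2 fold change of -0.12 ± 0.08 against 5xFAD (SE; adjusted p 0.560). Luzp2 was at 191 and 201 CPM in 5xFAD, 155 and 173 CPM in 5xFAD-M28L, and 154 and 152 CPM in 5xFAD-P522R (-0.36 ± 0.09 SE, adjusted p 0.301). For all 9 genes both 5xFAD-P522R libraries lay below both 5xFAD libraries, which was so for 20.8% of all genes tested in this cell type. The 9 genes had a median log2 fold change of -1.21, beside 0.01 over all genes.

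Whether a gene's change differed between the 2 cell types was tested directly, in a single edgeR fit of both with the library as a block, a test added after the data were seen. For 5xFAD-P522R against 5xFAD, 7 of the 9 genes fell further in oligodendrocyte-like than in astrocyte-like nuclei, where 1.01% of 17077 genes were called and 0.966% in that direction. The difference of log2 fold changes was -0.98 ± 0.12 (SE; adjusted p 0.000433) for Slc1a2, -1.25 ± 0.14 for Prex2 (SE; adjusted p 0.000433) and -0.92 ± 0.13 for Slc4a4 (SE; adjusted p 0.00160). For Aqp4 it was -1.64 ± 0.24 and for Gja1 -1.54 ± 0.23 (SE; adjusted p 0.00193 for both). It was -1.37 ± 0.28 for Gjb6 (SE; adjusted p 0.0221) and -0.65 ± 0.12 for Trpm3 (SE; adjusted p 0.0103), and both lost the call without some single libraries (adjusted p up to 0.118 and 0.112), Gjb6 without 5xFAD replicate 2 or 5xFAD-P522R replicate 3 and Trpm3 without either 5xFAD library. For Slc1a3 the difference was 0.13 ± 0.12 (SE; adjusted p 0.772) and for Luzp2 0.28 ± 0.12 (SE; adjusted p 0.404). Against 5xFAD-M28L, 5 of the 9 were called (Slc1a2, Prex2, Slc4a4, Aqp4 and Trpm3), where 0.164% of genes were called. Of those 5, Prex2 alone was called with each of the 6 libraries left out in turn. Slc1a2, Slc4a4 and Trpm3 were lost without either 5xFAD-M28L library, and Aqp4 without 5xFAD-M28L replicate 2 as well as without 5xFAD-P522R replicate 3. In 5xFAD-M28L against 5xFAD none of the 9 and 0% of genes were called.

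**Figure D2:**
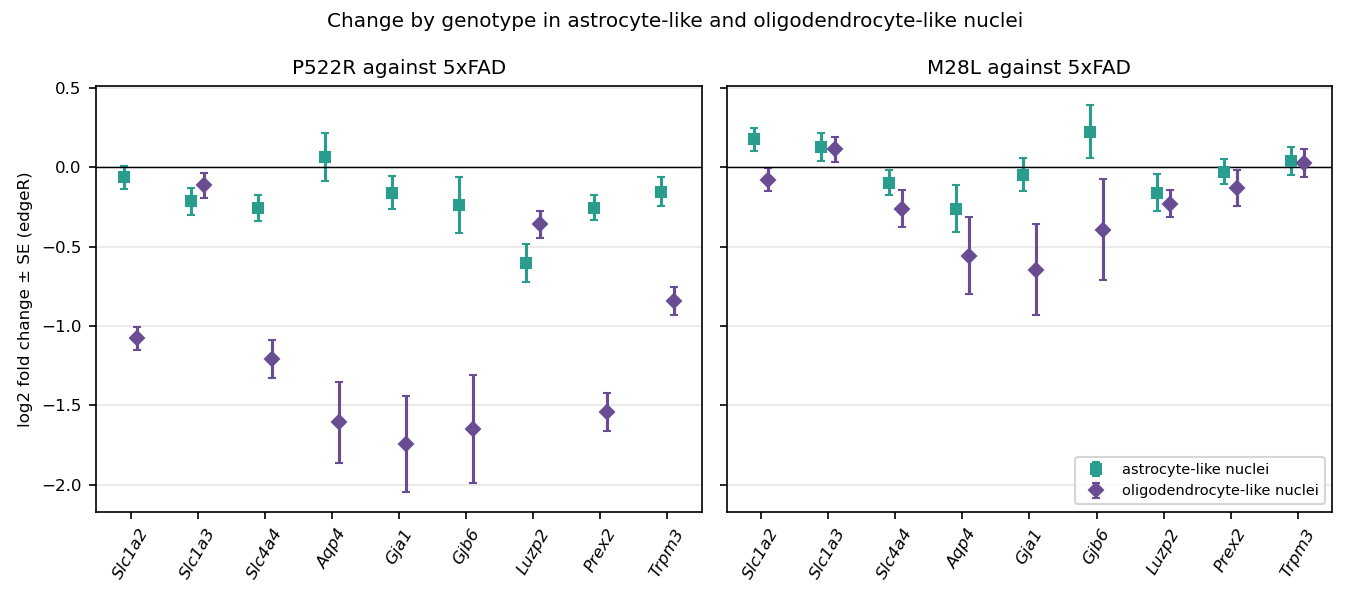
Log2 fold change ± SE (edgeR) of each of the 9 genes in astrocyte-like and oligodendrocyte-like nuclei, for 5xFAD-P522R against 5xFAD (left) and 5xFAD-M28L against 5xFAD (right). On the left, Prex2 is at -1.54 in oligodendrocyte-like and -0.25 in astrocyte-like nuclei, while the error bars of Slc1a3 in the 2 types (-0.12 and -0.22) overlap.

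Microglia-like nuclei, whose values chose these genes, are described without a test. Slc1a2 was at 99.3 and 91.2 CPM in 5xFAD, 100.3 and 89.5 CPM in 5xFAD-M28L, and 44.6 and 40.1 CPM in 5xFAD-P522R, close to the levels in oligodendrocyte-like nuclei. Prex2 was at 19.8 and 17.9, 21.8 and 19.2, and 11.7 and 5.92 CPM in the same order. All 9 genes were lower in both 5xFAD-P522R libraries than in both 5xFAD libraries, with a median log2 fold change of -1.18, beside 0.01 over all genes and 21.6% of genes whose libraries separated in that way. Slc1a3 was again the exception in size, at 320 and 325 CPM in 5xFAD, 354 and 449 CPM in 5xFAD-M28L, and 297 and 288 CPM in 5xFAD-P522R.

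The share of nuclei with at least 1 UMI showed how the low level was spread. In oligodendrocyte-like nuclei thinned to 2000 UMIs each, 14.7% and 16.3% held a Slc1a2 UMI in 5xFAD, 15.0% and 13.9% in 5xFAD-M28L, and 7.39% and 7.81% in 5xFAD-P522R. In microglia-like nuclei the thinned shares were 17.1% and 16.6%, 18.1% and 15.1%, and 7.73% and 8.85%. In astrocyte-like nuclei they were 98.5% to 99.8%. Thinning left out 60 to 695 oligodendrocyte-like and 23 to 245 microglia-like nuclei per library, and the shares before it were 14.2% to 30.7% and 13.7% to 30.5%. Median depths were 3137 to 4388 UMIs per nucleus in oligodendrocyte-like and 2743 to 3797 in microglia-like nuclei. The 2 cell types thus held Slc1a2 in like shares of nuclei, in each library, and in both the share in 5xFAD-P522R was the lowest. Nuclei with 5 or more Slc1a2 UMIs made up at most 0.223% of oligodendrocyte-like nuclei in any library, against 97.4% to 99.2% of astrocyte-like nuclei.

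Slc1a3 did not have like shares in the 2 types. After thinning, 23.0% to 28.8% of oligodendrocyte-like nuclei and 38.4% to 49.3% of microglia-like nuclei held a Slc1a3 UMI, with no overlap of the 6 libraries. The lowest library of each type belonged to 5xFAD-P522R, at 23.0% and 38.4%, and the highest to 5xFAD-M28L.

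Among oligodendrocyte-like nuclei, Slc1a2 and Slc1a3 also differed in how they scaled with depth. Each library's nuclei were split into 4 equal bins by their UMIs. In 5xFAD replicate 2, Slc1a2 was at 108 CPM in the shallowest bin (median 2077 UMIs) and 69.6 CPM in the deepest (median 4731). In 5xFAD-P522R replicate 2 it was at 47.9 and 31.6 CPM. The fall from the shallowest to the deepest bin was seen in each of the 6 libraries. Slc1a3 was at 165 and 192 CPM in these bins of 5xFAD replicate 2, and at 176 and 173 in 5xFAD-P522R replicate 2. Per nucleus, Slc1a2 rose from 0.219 to 0.362 UMIs and Slc1a3 from 0.334 to 1.001 in 5xFAD replicate 2. In every bin both 5xFAD-P522R libraries held less Slc1a2 (CPM) than the other 4.

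Each gene's level outside astrocytes was also set against its level in astrocyte-like nuclei of the same library. In oligodendrocyte-like nuclei the median ratio was 0.729% for Prex2, 0.835% for Slc1a2, 1.24% for Slc4a4, 1.80% for Trpm3, 1.66% for Gjb6, 2.10% for Aqp4 and 2.17% for Gja1. It was 4.68% for Luzp2 and 6.46% for Slc1a3, and for these 2 the lowest library (4.20% and 5.78%) lay above the highest library of each of the other 7 genes (0.795% to 3.41%). In microglia-like nuclei the ratios were 0.742% for Prex2, 1.01% for Slc1a2, 1.33% for Slc4a4, 1.85% for Trpm3, 1.86% for Gjb6, 2.42% for Luzp2, 2.48% for Gja1, 3.74% for Aqp4 and 11.6% for Slc1a3. The libraries of the 2 cell types did not overlap in this ratio for Slc1a3 (5.78% to 6.88% and 11.1% to 14.8%) and for Luzp2 (4.20% to 5.52% and 1.88% to 2.50%), and overlapped for the other 7 genes, with the widest gap of medians for Aqp4. The 3 genes with the shortest spans, Gjb6 (10.3 kb), Aqp4 (21.5 kb) and Gja1 (25.2 kb), had higher ratios than Slc1a2 (132 kb) and Prex2 (310 kb) in both types. The order by span did not hold throughout, since Trpm3, the longest at 856 kb, lay close to Gjb6 in both types, and Luzp2 (433 kb) lay above the 3 short genes in oligodendrocyte-like nuclei.

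**Figure D3:**
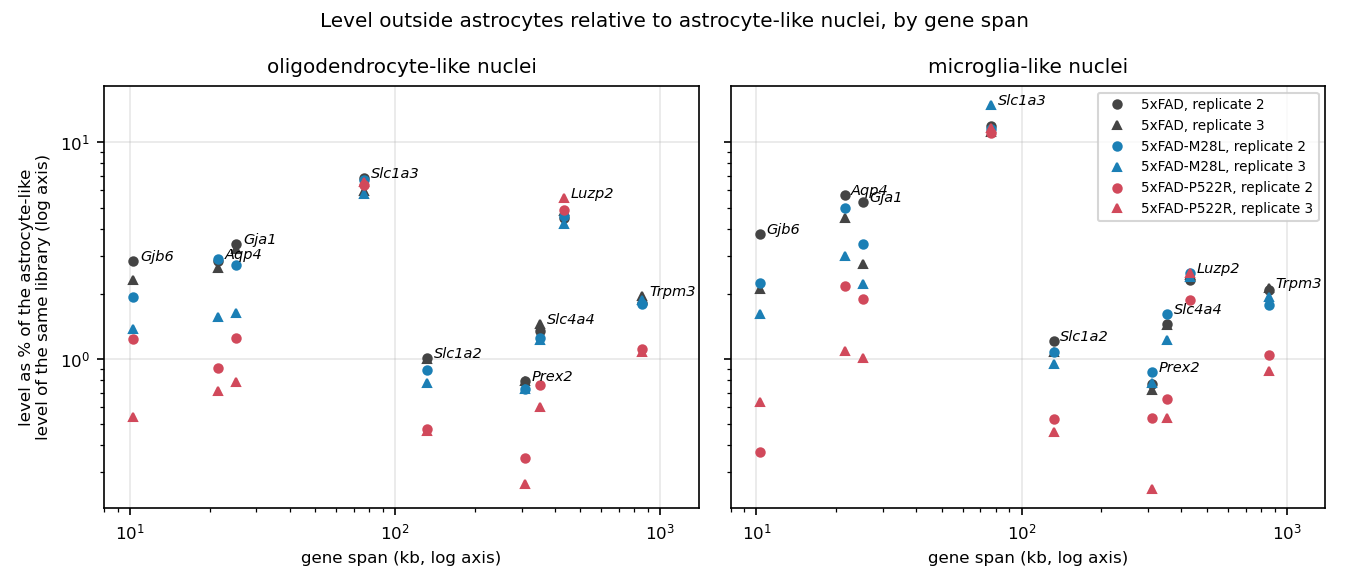
Level of each of the 9 genes in oligodendrocyte-like (left) and microglia-like nuclei (right) as a percent of its level in astrocyte-like nuclei of the same library, against the span of the gene in kb (both axes log), 1 point per library. Slc1a3 lies highest in both panels (medians 6.46% and 11.6%), and the 5xFAD-P522R points lie lowest for most genes.

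The make-up of the low-level RNA differed in the same way. In astrocyte-like nuclei Slc1a2 gave 37.0% of the UMIs of the 9 genes, Luzp2 16.5%, Trpm3 12.7%, Slc1a3 12.1% and Prex2 10.6%. In oligodendrocyte-like nuclei Slc1a3 gave 35.2%, Luzp2 33.3% and Slc1a2 12.99%. In microglia-like nuclei Slc1a3 gave 56.3%, Luzp2 14.3% and Slc1a2 12.6%. In OPC-like and committed OPC-like nuclei Luzp2 gave 68.0% and 90.2%, and in fibroblast-like nuclei Trpm3 gave 82.5%.

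Over the 6 libraries, the summed level of the 9 genes in oligodendrocyte-like nuclei followed the astrocyte-like share of nuclei. It was 581 and 585 CPM in 5xFAD, 560 and 527 CPM in 5xFAD-M28L, and 426 and 406 CPM in 5xFAD-P522R, with r = 0.957 and rho = 0.943 (r = 0.989 without the 2 libraries whose share lay farthest from the median). No p is given for this sum, since the genes were chosen with results of these data known, and r is a description of 6 libraries in 3 groups. Within both replicate numbers the sum had the same order as the share. The per-nucleus sum, in place of the sum in CPM, gave r = 0.510. In 5xFAD replicate 2, which had the highest share, oligodendrocyte-like nuclei were also the shallowest (median 3137 UMIs).

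In inhibitory neuron-like nuclei r was 0.922 and rho 0.943 (r = 0.781 without the 2 farthest), with the order of the share in both replicate numbers, but the per-nucleus sum gave r = 0.0363 there. In microglia-like nuclei r was 0.755, on sums of 661 and 649 CPM in 5xFAD, 669 and 750 CPM in 5xFAD-M28L, and 466 and 442 CPM in 5xFAD-P522R, so the 5xFAD-M28L libraries lay above 5xFAD despite their lower share. In 5xFAD-M28L replicate 3, Slc1a3 made up 449 of the 750 CPM. In excitatory neuron-like, fibroblast-like and pericyte-like nuclei r was 0.724, 0.732 and 0.678. It was 0.406 in OPC-like, 0.339 in committed OPC-like and 0.114 in endothelial-like nuclei, and -0.319 in border macrophage-like nuclei. Single libraries set these low values: without 5xFAD-P522R replicate 3 they were 0.551, 0.702, 0.753 and -0.766, and without 5xFAD-P522R replicate 2 they were 0.108, 0.158, -0.0877 and 0.773. Without 5xFAD replicate 2 the OPC-like value was 0.663 and the endothelial-like one -0.0871, and without 5xFAD replicate 3 they were 0.272 and -0.0908, with 0.216 in committed OPC-like nuclei. Without 5xFAD-M28L replicate 2 the endothelial-like value was 0.209. OPC-like nuclei held 3248 to 3470 CPM in the 6 libraries, most of it Luzp2. In border macrophage-like nuclei a single library, 5xFAD-P522R replicate 2, stood at 1322 CPM against 247 to 395 in the other 5, and the nuclei in the highest 1% held 78.6% of its UMIs of these genes.

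**Figure D4:**
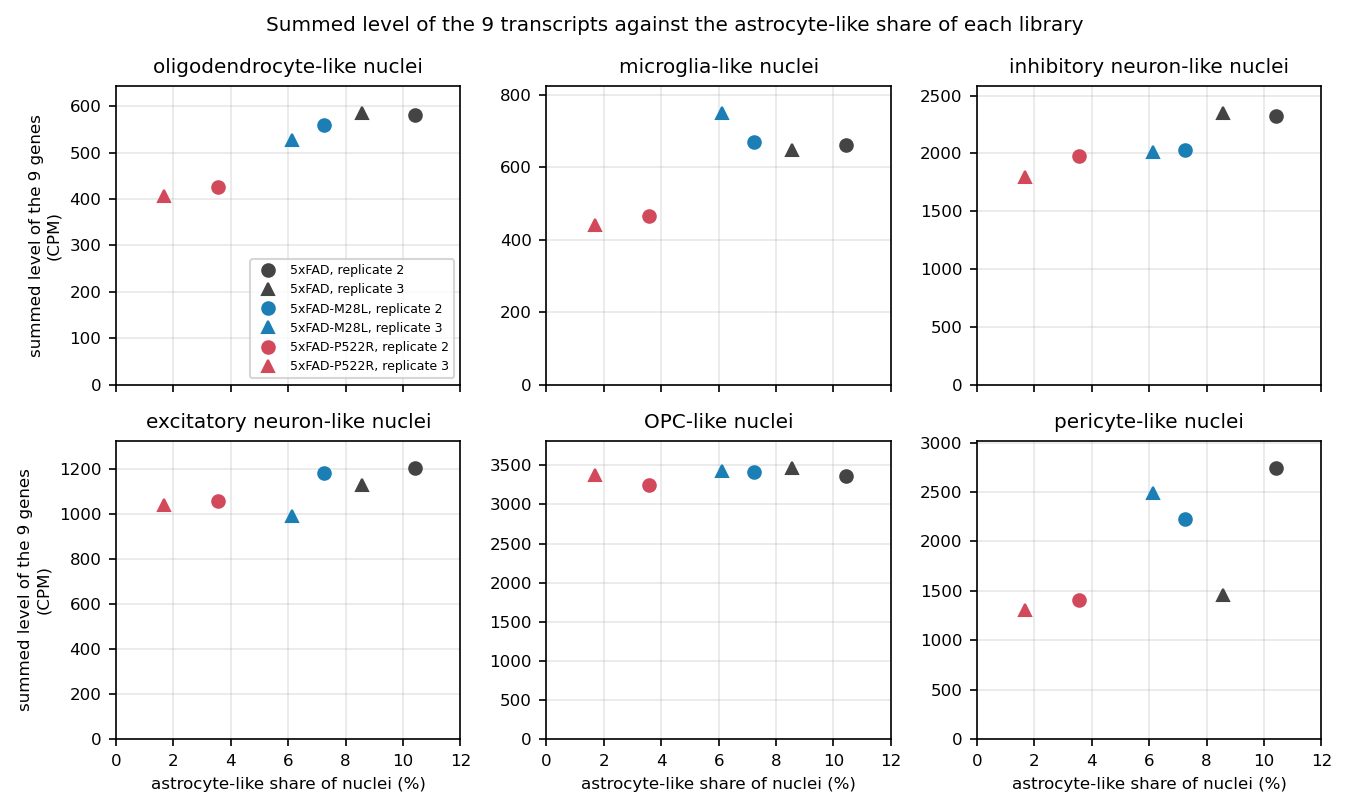
Summed level of the 9 genes (CPM) in 6 cell types against the astrocyte-like share of nuclei, 1 point per library. In oligodendrocyte-like nuclei the 2 libraries of 5xFAD-P522R, with shares of 3.56% and 1.68%, lie lowest at 426 and 406, and in OPC-like nuclei all libraries lie between 3248 and 3470.

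Outside astrocytes, oligodendrocytes and microglia, 8 cell types were tested, and Luzp2 in endothelial-like nuclei was the one gene that passed. It stood at 436 and 581 CPM in 5xFAD, 87.8 and 120 CPM in 5xFAD-M28L, and 61.5 and 60.3 CPM in 5xFAD-P522R, or 276, 319, 46, 53, 21 and 9 UMIs. The log2 fold change was -2.27 ± 0.25 for 5xFAD-M28L (SE; edgeR, adjusted p 0.00236, where 0.0251% of 7980 genes were called) and -3.08 ± 0.29 for 5xFAD-P522R (SE; adjusted p 0.000569, where 0.0376% were called). The other genes called there were Gpc5 in both contrasts and Dtna in the second, which are also abundant in astrocyte-like nuclei (medians 11356 and 2378 CPM). Few nuclei carried this RNA: there were 24 to 152 endothelial-like nuclei per library, 1 nucleus held 452 UMIs of the 9 genes in 5xFAD replicate 2 and 1 held 530 in replicate 3, and with the nuclei in the highest 1% left out none of the 9 was called (Luzp2 at -1.07 in 5xFAD-M28L and -2.10 in 5xFAD-P522R). With nuclei gated on their own markers its values were -0.27 and -1.27, and neither was called. The call in 5xFAD-M28L was also lost without nuclei whose barcode occurred in 2 libraries (-1.67) and without 5xFAD-M28L replicate 2 (-2.05). In 5xFAD-P522R replicate 3, which had 24 such nuclei, Trpm3 was at 1683 CPM against 47.6 to 280 in the other 5 libraries. In the other 7 types (OPC-like, committed OPC-like, border macrophage-like, pericyte-like, fibroblast-like and both neuron classes) none of the 9 passed in any contrast, where at most 0.265% of genes were called (inhibitory neuron-like nuclei, 5xFAD-P522R against 5xFAD). In pericyte-like nuclei 0.0168%, 0.0839% and 0.0168% of genes were called in 5xFAD-M28L against 5xFAD, 5xFAD-P522R against 5xFAD and 5xFAD-P522R against 5xFAD-M28L. For 5xFAD-P522R against 5xFAD, the unadjusted edgeR p was under 0.05 for 5 of 9 genes tested in OPC-like nuclei (1625 of all 14811). It was so for 5 of 8 in excitatory (1453 of 14759) and 5 of 9 in inhibitory neuron-like nuclei (1368 of 14743). Pericyte-like nuclei had 4 of 6 (393 of 5963) and border macrophage-like nuclei 2 of 4 (222 of 5569). Committed OPC-like nuclei had 2 of 7 (317 of 7470) and fibroblast-like nuclei 1 of 8 (549 of 10283). All 9 had a negative fold change in inhibitory neuron-like nuclei, with a median of -0.65 beside 0.00 over all genes.

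The astrocyte-like class was made of 2 clusters, of 3443 and 664 nuclei before doublets were removed, and the members differed between them. Gfap, which encodes an intermediate filament of reactive and border astrocytes, was at a median of 394 CPM in the smaller cluster and 116 in the larger. The smaller cluster also held more Aqp4 (440 CPM, 382 to 535, against 167, 138 to 208). It held less Luzp2 (1076 against 4132 CPM), Trpm3 (661 against 3382 CPM), Gjb6 (74.0 against 181 CPM) and Slc1a2 (6534 against 9300 CPM), in each case with no overlap of the 6 libraries. Slc1a3 (1894 against 2949 CPM), Slc4a4 (1359 against 2098 CPM) and Prex2 (1933 against 2563.5 CPM) were also lower in the smaller cluster, again with no overlap. Gja1 overlapped (262 and 254 CPM). Clusters were formed from the same nuclei without these 9 genes, and no test is given between them. The smaller and the larger cluster held 241 and 1128 nuclei in 5xFAD replicate 2 and 102 and 673 in replicate 3. In 5xFAD-M28L they held 98 and 597 in replicate 2 and 97 and 446 in replicate 3. In 5xFAD-P522R they held 60 and 279 in replicate 2 and 46 and 114 in replicate 3. The smaller cluster had its largest part of the class in 5xFAD-P522R replicate 3. In 5xFAD-P522R replicate 2 its part was close to that in 5xFAD replicate 2. In the larger cluster Luzp2 was at 4799 and 4547 CPM in 5xFAD and 3588 and 3405 CPM in 5xFAD-P522R. In the smaller it was at 968 and 1118 CPM in 5xFAD and 1034 and 1384 CPM in 5xFAD-P522R. The part of the cluster mix in the class values was not tested.

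Of the genes that act beside these 9, none on 3 lists passed in astrocyte-like nuclei. In the list for glutamate and GABA handling, 13 of 13 genes were tested, with median log2 fold changes of 0.06, -0.02 and -0.12 in 5xFAD-M28L against 5xFAD, 5xFAD-P522R against 5xFAD and 5xFAD-P522R against 5xFAD-M28L. Slc7a11, the cystine and glutamate exchanger, had -0.54 ± 0.11 in 5xFAD-P522R against 5xFAD (SE; adjusted p 0.247). In the list for potassium, pH and water handling (15 of 15 tested, medians 0.06, 0.01 and -0.05), Dmd, which encodes dystrophin, had -0.33 ± 0.09 in 5xFAD-P522R against 5xFAD (SE; adjusted p 0.314) and Slc8a1, the sodium and calcium exchanger, 0.35 ± 0.11 in 5xFAD-M28L against 5xFAD (SE; adjusted p 0.911). In the list of gap junction genes (4 of 10 tested), Gjc3, a connexin gene of oligodendrocytes, had 0.75 ± 0.19 in 5xFAD-P522R against 5xFAD (SE; adjusted p 0.282), and Tjp1, which encodes a junction scaffold, -0.32 ± 0.12 in 5xFAD-P522R against 5xFAD-M28L (SE; adjusted p 0.569).

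Transcripts of each cell type were then read in the other. Of 8 other abundant astrocyte transcripts, all had a negative fold change in oligodendrocyte-like nuclei in 5xFAD-P522R against 5xFAD, 1 was called (Gpc5), and the median log2 fold change was -0.73. In astrocyte-like nuclei the same 8 had a median of -0.07, and none was called. Of 7 abundant oligodendrocyte transcripts, all had a positive fold change in astrocyte-like nuclei, with a median of 1.04, and 2 rose: Mbp, which encodes myelin basic protein (1.40 ± 0.12 SE, adjusted p 0.0151), and Mobp (1.38 ± 0.13 SE, adjusted p 0.0151). In oligodendrocyte-like nuclei the same 7 had a median of 0.03. These 2 are among the 3 genes called in astrocyte-like nuclei in any contrast, the third being Ank3 (1.15 ± 0.11 SE, adjusted p 0.0151), which was at 2362 CPM in oligodendrocyte-like and 96.1 CPM in astrocyte-like nuclei. All 3 calls were lost without 5xFAD replicate 2 (adjusted p 0.172 for Mbp and 0.234 for Mobp and Ank3), without 5xFAD replicate 3 (0.118, 0.118 and 0.126) and without 5xFAD-P522R replicate 3 (0.103 for each). They were also lost with called doublets kept (adjusted p 0.333 for each, log2 fold changes of 0.93, 1.01 and 0.81), while the fold changes stayed between 1.12 and 1.47 without those libraries. Mobp and Ank3 also lost the call when only the 4 libraries compared were fitted and when nuclei were gated on their own markers, where Ank3 was at 0.37 and Mobp at 1.48. The oligodendrocyte-like share of nuclei was 50.1% and 44.6% in 5xFAD, 54.0% and 55.5% in 5xFAD-M28L, and 59.7% and 57.9% in 5xFAD-P522R. In each direction the transcripts of the other cell type were lower in the group in which that cell type gave fewer nuclei, but the sizes were unlike. The oligodendrocyte-like share was 44.6% to 50.1% in 5xFAD and 57.9% to 59.7% in 5xFAD-P522R, beside a median log2 fold change of 1.04. The astrocyte-like share was 8.57% to 10.4% in 5xFAD and 1.68% to 3.56% in 5xFAD-P522R, beside a median of -0.73. The part of free RNA, shared droplets or expression in these differences was not tested.

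Over 66 sums (11 cell types in 6 libraries), the genes whose log2(CPM + 1) was most like the mean of the 9 were Gm973 (r = 0.917), Scara3 (0.915), Nat8f3 (0.913), Ahcyl1 (0.911) and Gm26671 (0.909). Among the 9 themselves r with that mean ran from 0.440 (Luzp2) to 0.865 (Gjb6). The sums of 1 library share its depth and those of 1 cell type share its genes, so these correlations are a description.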

How the data were processed

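Per the labels' protocols, NeuN-negative nuclei were run on 10x Genomics 3' v3 chemistry. The authors deposited raw UMI counts, 1 matrix of genes by nuclei per library. Per the submitters' processing notes, Cell Ranger 6.1.2 and mm10 were used. The treatment of intronic reads is not given in the sources used here. The smallest barcode totals were 500 to 502 UMIs.

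The filters were 500 UMIs, 300 genes and a mitochondrial share of at most 5%, which 62651 nuclei passed. Scrublet in scanpy 1.11.5 called doublets, with a common threshold of 0.2952 because the automatic one marked under 0.5% of nuclei in 3 libraries. Nuclei were clustered without the 9 genes (2000 variable genes, 30 components, 20 neighbours, Leiden resolution 1), which gave 33 clusters, 5 of them unnamed. A name needed at least 3 markers, 40% of its list (25% for neurons), under 40% doublets, no other type with more markers among the top 10 genes, and, where the top 10 held none of its own markers, a median depth that was not too low for its libraries.

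For cell types with at least 20 nuclei in each library, UMIs were summed within a library and the sums tested in R 4.3.3 by the two-sided quasi-likelihood F-test of edgeR 4.0.16, after filterByExpr (minimum count 10) and TMM scaling. A single fit held all 6 libraries, with Benjamini-Hochberg adjustment over all genes and a threshold of 0.05. The 3 contrasts share groups. Printed CPM values are not TMM-scaled. The tests were checked on simulated counts. The members, lists and tests were chosen with earlier results of these data known. All 9 genes are named. Of each pathway list those that passed in astrocyte-like nuclei, otherwise the 2 with the smallest unadjusted p, are named (apart from genes not reported here), and the 5 genes most like the 9. Gene models are GENCODE's for GRCm38 and promoters RefSeq's for GRCm38.p6. Alternatives included DESeq2 1.42.0, other scalings, filters, depths and cell-type rules, a replicate block and each library left out.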

Additional observations from a re-analysis of the deposited data

Results flagged for a closer look

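The change by genotype differed between oligodendrocyte-like and astrocyte-like nuclei for 7 of the 9 genes in 5xFAD-P522R against 5xFAD and for 5 in 5xFAD-P522R against 5xFAD-M28L, by the test of that difference. Against 5xFAD the differences of log2 fold changes were -1.64 for Aqp4, -1.54 for Gja1, -1.37 for Gjb6, -1.25 for Prex2, -0.98 for Slc1a2, -0.92 for Slc4a4 and -0.65 for Trpm3. Against 5xFAD-M28L they were -1.37 for Aqp4, -1.17 for Prex2, -0.78 for Slc4a4, -0.74 for Slc1a2 and -0.66 for Trpm3. The astrocyte-like share fell by 1.86 on the log2 scale from 5xFAD to 5xFAD-P522R and by 1.35 from 5xFAD-M28L, and its part in these differences was not tested.

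A cluster of 1364 shallow nuclei (median 655 UMIs), in which all 12 oligodendrocyte markers were high and mitochondrial genes led, was left unnamed and enters no comparison above. There Slc1a2 was at 609 and 625 CPM in 5xFAD, 1161 and 422 CPM in 5xFAD-M28L, and 1675 and 742 CPM in 5xFAD-P522R. For Slc1a2 the 2 libraries of 5xFAD-P522R and replicate 2 of 5xFAD-M28L lay above both 5xFAD libraries, on 52 to 475 nuclei per library. This is the opposite order to that in the named oligodendrocyte-like nuclei, and no other of the 9 genes had both 5xFAD-P522R libraries above both 5xFAD libraries. Gjb6 was lower, at 21.5 and 39.65 CPM in 5xFAD and 16.55 and 7.535 CPM in 5xFAD-P522R. For the remaining genes the libraries of these 2 groups overlapped. No test was made.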

How the results depend on the processing

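In astrocyte-like nuclei the 9 genes gave 0 calls in 5xFAD-M28L against 5xFAD in every alternative run. For 5xFAD-P522R against 5xFAD there was 1 call with DESeq2, with no filter on low counts and with the replicate block, and 0 to 1 with each library left out. Against 5xFAD-M28L there were 4 with DESeq2 and 3 with no filter. Over all genes in these 2 contrasts, DESeq2 called 77 and 71 and the replicate block 211 and 1, against 3 and 0 in the main fit.

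In oligodendrocyte-like nuclei, where 3 and 2 genes were called in the 2 contrasts of 5xFAD-P522R, DESeq2 called 7 and 4, no filter 8 and 7, and the replicate block 8 and 6. Over all genes, DESeq2 called 84 and 55 and the replicate block 1084 and 244, against 6 and 2 in the main fit. Marker-gated nuclei and a fit of only the 4 libraries gave 0 in both. The second contrast gave 1 with called doublets kept, 0 with types at resolution 2 and 1 with a minimum count of 50. Leaving out each library gave 0 to 1 and 0 to 2. The cause of these moves was not tested, except that left-out libraries and the 4-library fit have fewer samples.

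Of the other 8 types, OPC-like nuclei had the most genes called over all genes with the replicate block. These were 727 in 5xFAD-M28L against 5xFAD and 643 in 5xFAD-P522R against 5xFAD. Totals over all genes with no filter are not given here. For the 9 genes in the 8 types, 1, 1 and 0 calls (5xFAD-M28L against 5xFAD, 5xFAD-P522R against 5xFAD, and against 5xFAD-M28L) became 5, 22 and 8 with no filter. They were 0 in the first 2 contrasts for gated nuclei and without the highest 1% of nuclei. The first gave 0 without shared barcodes, 3 in the 4-library fit and 2 with the replicate block, the second 6 with the block, and the third 1 in the 4-library fit. With each library left out they ran from 0 to 4, 1 to 5 and 0 to 4. The test between cell types gave 5 to 8 and 1 to 8 calls against 5xFAD and 5xFAD-M28L with each library left out. The sum of the 9 genes in oligodendrocyte-like nuclei had r = 0.510 per nucleus, and 0.920 to 0.986 with each library left out.

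Signs turned for 8 of 83 gene results, none of them called. With a library left out, Gja1 in astrocyte-like nuclei ran from -0.105 to 0.013 in 5xFAD-M28L against 5xFAD, and in 5xFAD-P522R against 5xFAD Gjb6 ran from -0.455 to 0.0051 and Aqp4 from -0.18 to 0.293. Trpm3 in oligodendrocyte-like nuclei in 5xFAD-M28L against 5xFAD ran from -0.0205 to 0.0822, and was -0.0166 at resolution 2 and -0.65 for gated nuclei. Between the types in that contrast, Luzp2 ran from -0.0840 to 0.041, Slc1a3 from -0.0929 to 0.131, Aqp4 from -0.741 to 0.15 and Trpm3 from -0.040 to 0.0686.

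Same-numbered libraries deviated together (correlations of 0.10 to 0.33 over genes in astrocyte-like and 0.40 to 0.51 in oligodendrocyte-like nuclei), with 2 numbers only. The numbers are not stated to pair libraries. With the replicate block, 1084 genes were called in oligodendrocyte-like nuclei in 5xFAD-P522R against 5xFAD, 6 without it. Fewer than 140 UMIs per library for Aqp4 and fewer than 90 for Gjb6 limit these in oligodendrocyte-like nuclei.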
